A study of Mus musculus with 24 samples.

Results

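The epithelial alarmins, the IL-1 family cytokines that act beside them, and the receptor chains of the alarmins were followed in the lung. The set held 10 genes, chosen by their symbols: Il33, Tslp, Il25, Il1rl1, Crlf2, Il17rb, Areg, Il18, Il1a and Il1b. Of these, 9 had a row among the 23891 genes of the expression table, and Il25 was not analysed here. RNA-Seq had been performed on the left lung lobe of 24 C57BL/6 mice, to find how the aged lung answers house-dust mite (HDM), a common inhaled allergen, and dexamethasone (Dex), a synthetic glucocorticoid. The naïve adult mice (n = 5) were 20 wk old and received saline. The 3 aged groups were 80 wk old and received saline (n = 5), HDM (n = 7) or HDM and Dex (n = 7). HDM was given intranasally at 50 µg per dose for sensitization and then for repeated challenge, Dex at 4 mg/kg was injected intraperitoneally once per 72 h in the challenge phase, and the lobes were collected 24 h after HDM was last given. The adult mice received saline only, so HDM in the adult lung was not analysed here. Values are CPM, the reads of a gene scaled to a common total per sample. Groups were tested by limma on log2(CPM + 1), with Benjamini-Hochberg adjustment over the 17744 genes whose mean reached 1 CPM. All 9 genes passed that filter.

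Alarmins are cytokines that barrier cells release when they are injured or meet protease-rich allergens such as HDM. IL-33 is stored in the nucleus of epithelial, endothelial and stromal cells and binds ST2, encoded by Il1rl1, together with the shared chain IL-1RAcP, encoded by Il1rap. TSLP binds its own chain, encoded by Crlf2, together with the IL-7 receptor chain encoded by Il7r, and IL-25 acts through IL-17RB, encoded by Il17rb, together with IL-17RA. Group 2 innate lymphoid cells, Th2 cells, mast cells, basophils and dendritic cells carry various of these receptors, and their answer includes IL-5, IL-13 and amphiregulin, the EGF receptor ligand encoded by Areg. IL-1α, IL-1β and IL-18 belong to the same cytokine family as IL-33. IL-1β and IL-18 are made as precursors that caspase-1 cuts, so that their mRNA is not a measure of the active cytokine.

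After HDM the mRNA of 2 alarmin receptors was higher in the aged lung. Crlf2, the TSLP receptor chain, rose from a mean of 10.02 to 24.7 CPM, and Il1rl1, the IL-33 receptor chain, rose from 3.15 to 9.99 CPM. Il33 itself was at 84.1 CPM after HDM and 41.3 CPM in saline, a difference that did not pass the adjusted threshold. None of the 9 genes passed between HDM + Dex and HDM, or between the naïve aged and the naïve adult lung. After HDM the 9 genes had a median log2 fold change of −0.21, beside −0.23 over the 17744 genes.

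**Figure D1:**
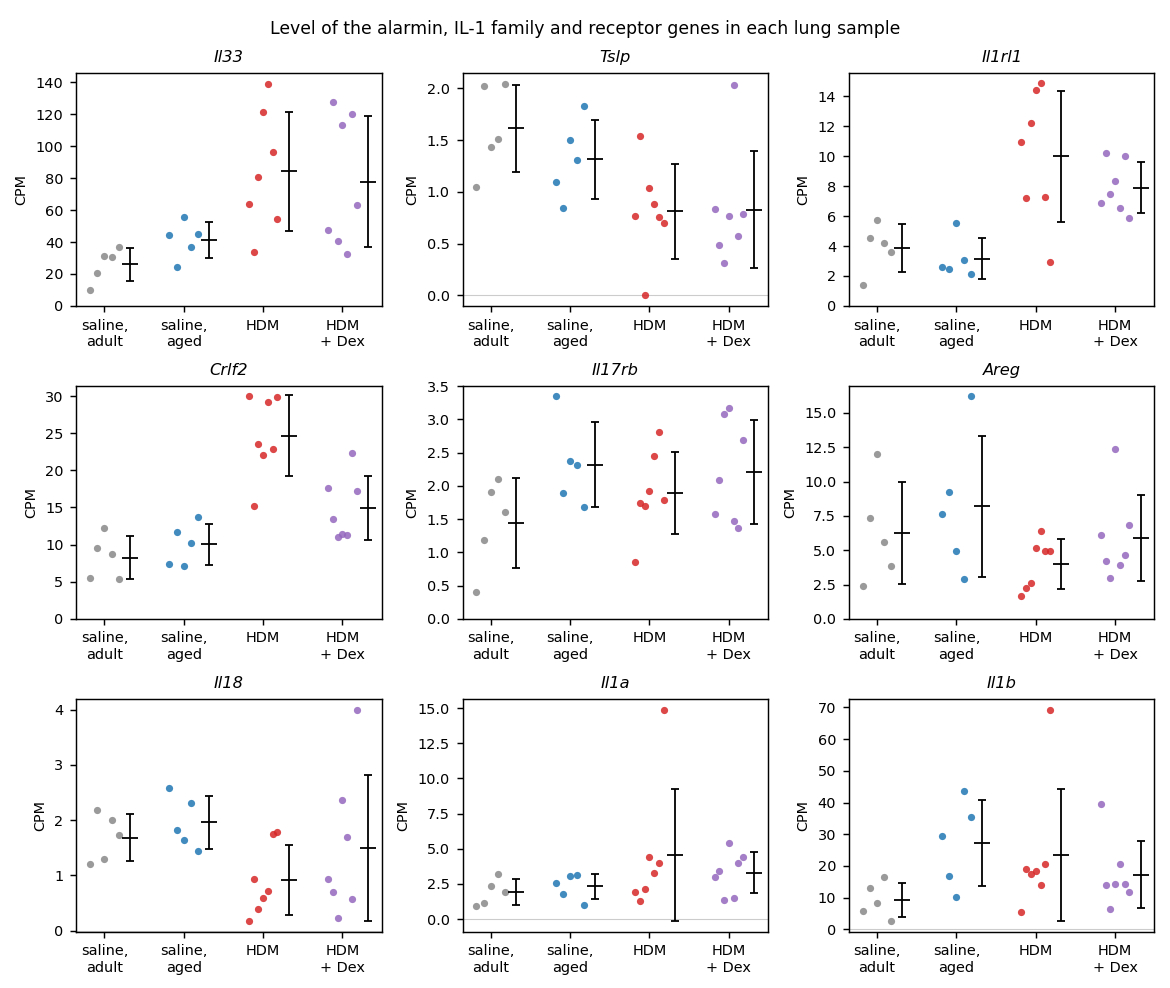
Level of the 9 genes in CPM (vertical axes, linear) in each of the 24 lungs, by group; points are mice and the black mark beside them is the mean ± SD. The HDM points of Crlf2 lie wholly above the saline points of the aged lung, those of Il33 and Il1rl1 mostly above them, and HDM replicate 7 stands highest in Il1a and Il1b.

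Reads and samples were not alike in all groups. Judged by the steps between low CPM values, a sample held 10.1 to 33.1 M reads on genes, and 3 reads corresponded to 0.0906 to 0.298 CPM. The 7SL RNA of the signal recognition particle (Rn7s1 and Rn7s2) took 9.92% to 41.98% of a library, and a higher share leaves less of the CPM total to the other genes. Its medians were 16.2% for the adult and 10.9% for the aged naïve lungs, 28.1% after HDM and 26.8% under HDM + Dex. Rescaling by median-of-ratios factors brought the median change of all genes after HDM to −0.01 (log2), and a change of a member's call between the scales is given beside it. By Xist, a gene of the inactive X chromosome, 5 of 5 naïve adult, 2 of 5 naïve aged, 2 of 7 HDM and 4 of 7 HDM + Dex mice were female. The 2 females of the HDM group were also its only samples with a 7SL share below 25%, so that sex and 7SL share cannot be told apart there. Markers of lung were present, with type 2 alveolar genes summing to 3450 to 14869 CPM in every sample. Heart muscle genes, 8 of 8 of which were called lower after HDM beside 21.2% of all genes, summed to 571 to 1081 CPM in aged saline and 21.7 to 432 CPM in HDM lungs.

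Per kilobase of exon, the scale on which levels of different genes can be set side by side, Il33 was the first of the 9 genes in all 4 groups. It stood at 8.99 ± 3.66 CPM per kb in the adult and 14.3 ± 3.96 CPM per kb in the aged naïve lung (mean ± SD), at 29.1 ± 13.0 CPM per kb after HDM and at 27.0 ± 14.2 CPM per kb under HDM + Dex. Crlf2 came second in 3 groups, with 16.5 ± 3.63 CPM per kb after HDM. In the naïve aged lung the second was Il1b, at 14.2 ± 7.13 CPM per kb, a distance from Il33 far smaller than the SD. In the adult lung and after HDM the distance of Il33 from Crlf2, 3.47 and 12.6 CPM per kb, was also within the larger SD, 3.66 and 13.0 CPM per kb. The order as a whole was loose: of the 8 pairs of neighbours in the order, those farther apart than the larger of their SDs numbered 2 and 4 in the adult and the aged naïve lung, 0 after HDM and 3 under HDM + Dex. Il1rl1 and Il17rb held the last 2 places in both naïve groups, at 0.565 and 0.390 CPM per kb in the adult lung and at 0.457 and 0.626 CPM per kb in the aged lung. After HDM Il1rl1 stood at 1.45 ± 0.633 CPM per kb, in the sixth place.

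Il33 (chr19:29925114-29960718, plus strand, GRCm38) measured 44.1, 24.6, 55.6, 37.2 and 44.9 CPM in the 5 naïve aged lungs. After HDM it ran from 33.7 to 139 CPM with a median of 80.4, and under HDM + Dex from 32.7 to 128 CPM with a median of 63.4. The HDM lungs were the higher in 30 of 35 pairs of a HDM and a saline lung, the groups overlapping through their lowest HDM values. The ratio of the means was 2.04. The log2 fold change was 0.92 ± 0.35 (SE), with an adjusted p = 0.055 from limma, while the exact permutation test of the mean CPM gave p = 0.0379. On the rescaled values the log2 fold change was 1.17 and the adjusted p = 0.0252, within a range of 0.0252 to 0.151 over 7 alternatives, so that its call depends on the scaling. It also passed without HDM replicate 2 (0.0168), HDM replicate 7 (0.0414), HDM + Dex replicate 2 (0.0497) or HDM + Dex replicate 5 (0.045). Between HDM + Dex and HDM it was −0.16 ± 0.32 (adjusted p = 0.89, limma). Il33 spread more within the 2 HDM groups, with an SD of 37.4 and 40.9 CPM, than within the naïve aged group, with 11.4 CPM.

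Tslp was close to the detection limit. The naïve adult lungs held 1.05, 2.03, 1.43, 1.51 and 2.04 CPM and the naïve aged lungs 1.09, 0.840, 1.499, 1.31 and 1.83 CPM. HDM lungs ran from no read, in replicate 3, where 3 reads would be 0.298 CPM, to 1.54 CPM with a median of 0.770 CPM, and HDM + Dex lungs from 0.309 to 2.03 CPM with a median of 0.765 CPM. These ranges overlap in all groups. The log2 fold change of HDM vs. saline was −0.38 ± 0.21 (adjusted p = 0.189, limma). The receptor chain Crlf2 was called higher while its ligand stood at 0.813 ± 0.459 CPM after HDM and 1.31 ± 0.379 CPM in saline. A gene on the other strand, 4930455D15Rik, overlaps Tslp, and whether the counting used the strand of the reads is not given in the sources used here.

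Crlf2, Il1rl1 and Il33 were the members called higher after HDM on at least 1 of the 2 scales, and the 250 bases before their annotated starts are shown so that these can be compared. They are from RefSeq (GRCm38.p6), written 5′ to 3′ on the strand of the gene. Il1rl1 and Il33 each have 2 starts in that table. Capitals mark matches on either strand to 4 motifs, which are AGATAA of the GATA factors, the glucocorticoid receptor half-sites ACANNNTGT, the longer of the STAT elements searched, and the TATA box sequence TATAAA.
Crlf2, chr5:109558994-109559243, minus strand: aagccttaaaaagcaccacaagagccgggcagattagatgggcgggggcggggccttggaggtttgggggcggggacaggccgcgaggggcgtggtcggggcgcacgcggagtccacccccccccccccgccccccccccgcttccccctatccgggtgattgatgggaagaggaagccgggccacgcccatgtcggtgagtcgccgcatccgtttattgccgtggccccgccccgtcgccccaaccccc
Il1rl1, chr1:40429320-40429569, plus strand: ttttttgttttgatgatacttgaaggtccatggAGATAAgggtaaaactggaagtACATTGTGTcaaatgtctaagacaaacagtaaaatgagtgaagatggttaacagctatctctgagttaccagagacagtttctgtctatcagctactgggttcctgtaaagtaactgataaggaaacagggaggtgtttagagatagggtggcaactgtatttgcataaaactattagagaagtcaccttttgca
Il1rl1, chr1:40439379-40439628, plus strand: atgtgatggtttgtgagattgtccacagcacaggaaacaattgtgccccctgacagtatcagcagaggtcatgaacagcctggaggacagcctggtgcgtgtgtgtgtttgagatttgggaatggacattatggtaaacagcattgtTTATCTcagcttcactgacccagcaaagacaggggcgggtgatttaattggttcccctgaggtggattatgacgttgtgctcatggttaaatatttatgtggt
Il33, chr19:29924863-29925112, plus strand: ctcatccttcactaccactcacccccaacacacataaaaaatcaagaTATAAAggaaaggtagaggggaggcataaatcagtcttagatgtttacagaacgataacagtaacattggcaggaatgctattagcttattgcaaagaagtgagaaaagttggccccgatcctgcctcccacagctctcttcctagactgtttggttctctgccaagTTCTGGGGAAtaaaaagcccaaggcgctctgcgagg
Il33, chr19:29945540-29945789, plus strand: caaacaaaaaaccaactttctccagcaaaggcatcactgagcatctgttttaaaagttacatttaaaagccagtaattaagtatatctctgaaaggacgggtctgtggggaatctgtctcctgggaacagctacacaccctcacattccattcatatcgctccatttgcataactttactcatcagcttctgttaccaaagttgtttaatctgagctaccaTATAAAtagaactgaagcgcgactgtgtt
The windows differ in base composition: G and C made up 71.6% of the bases at Crlf2, 37.6% and 46.4% at Il1rl1, and 45.2% and 39.6% at Il33. Both starts of Il1rl1 held a GATA match, at positions −217 to −212 of the first and −103 to −98 of the second, and the first also held the ACANNNTGT match at −195 to −187. The upstream start of Il33 held the longer STAT element at −36 to −27 and TATAAA at −203 to −198, and its downstream start held TATAAA at −29 to −24. None of the searched motifs lay in the Crlf2 window, which says only that these letters are not in it. Of 32851 windows of that length, AGATAA was in 9.99%, ACANNNTGT in 5.84%, the longer STAT element in 5.85% and TATAAA in 12.4%. The search also covered the shorter STAT element TTCNNNGAA (7.02% of the windows), the AP-1 site TGANTCA (6.75%), the C/EBP site TTGCNNCAA (1.74%), the CREB site TGACGTCA (1.55%) and the NF-κB element (0.642%), which gave no match in these 5 windows. A match is a likeness of letters and was not tested as a site.

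Crlf2 (chr5:109554709-109558993, minus strand, GRCm38) separated the groups. The naïve aged lungs held 7.41, 11.7, 7.16, 10.2 and 13.7 CPM. HDM lungs ran from 15.2 to 29.96 CPM with a median of 23.6 CPM, so that the lowest of them lay above the highest saline lung. Of all genes tested, 1.03% were higher without overlap in this comparison. The mean rose 2.46-fold, with a log2 fold change of 1.23 ± 0.20 (adjusted p = 0.000549, limma) and an exact permutation p = 0.00126, the smallest that 792 splits allow. The call held in 7 of 7 alternatives and in 19 of 19 fits that left out 1 sample. In the 2 HDM lungs with a 7SL share below 25% Crlf2 was at 22.9 and 29.9 CPM. Within males the 5 HDM lungs averaged 24.0 CPM against 10.9 CPM in 3 saline lungs (15 of 15 pairs, exact permutation p = 0.0357). Those HDM males all had a 7SL share above 25% and those saline males all had one below it. HDM and 7SL share therefore cannot be told apart within males.

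Crlf2 was the 1 gene of the 9 that stood lower under Dex by the exact test. The HDM + Dex lungs measured 11.0 to 22.3 CPM with a median of 13.5 CPM, against 15.2 to 29.96 CPM after HDM alone. The ranges overlapped through HDM replicates 2 and 4 and the upper HDM + Dex lungs, and the HDM + Dex lung was the higher in 4 of 49 pairs. The mean was 0.604 times that of HDM (exact permutation p = 0.00641, 36 such tests in all, not adjusted), with a log2 fold change of −0.70 ± 0.18 and an adjusted p = 0.0651 from limma. After rescaling the adjusted p was 0.0491, and over 7 alternatives it ran from 0.0453 to 0.112, with 2 of them under 0.05. Without HDM replicate 2 it was 0.021 and without HDM + Dex replicate 6 it was 0.022. The difference was −10.8 CPM in females and −9.96 CPM in males (exact permutation p = 0.133 and 0.0714). It was −13.1 CPM below and −7.90 CPM above a 7SL share of 25% (exact permutation p = 0.1, the smallest possible there, and 0.0794). The HDM females are also the HDM lungs below that share, so the splits by sex and by share reuse the same HDM lungs and are not separate checks. HDM + Dex lungs were at 14.9 ± 4.27 CPM against 10.02 ± 2.78 CPM in saline, a log2 fold change of 0.52 ± 0.20 (adjusted p = 0.156, limma; exact permutation p = 0.0492).

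Il1rl1 (chr1:40429570-40465415, plus strand, GRCm38) encodes both the membrane receptor and a soluble decoy form of ST2, which gene-level values do not separate. The naïve aged lungs held 2.61, 2.45, 5.51, 3.07 and 2.13 CPM, and HDM lungs ran from 2.93 to 14.9 CPM with a median of 11.0 CPM. Only HDM replicate 7, at 2.93 CPM, lay within the saline range, and HDM was the higher in 33 of 35 pairs. The mean rose 3.17-fold, with a log2 fold change of 1.33 ± 0.28 (adjusted p = 0.00204, limma; exact permutation p = 0.00884). The call was lost with the 7SL share as a covariate, where the log2 fold change was 0.89 and the adjusted p = 0.0794, within 0.00194 to 0.0794 over 7 alternatives. Within males, all of whose HDM lungs had a 7SL share above 25%, the 5 HDM lungs averaged 11.9 CPM and the 3 saline lungs 2.40 CPM (exact permutation p = 0.0179, the smallest possible). The 2 HDM females were at 7.30 and 2.93 CPM against 5.51 and 3.07 CPM in the 2 saline females, a difference of 0.823 CPM (exact permutation p = 1.0, where 2 against 2 cannot go below 0.333).

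**Figure D2:**
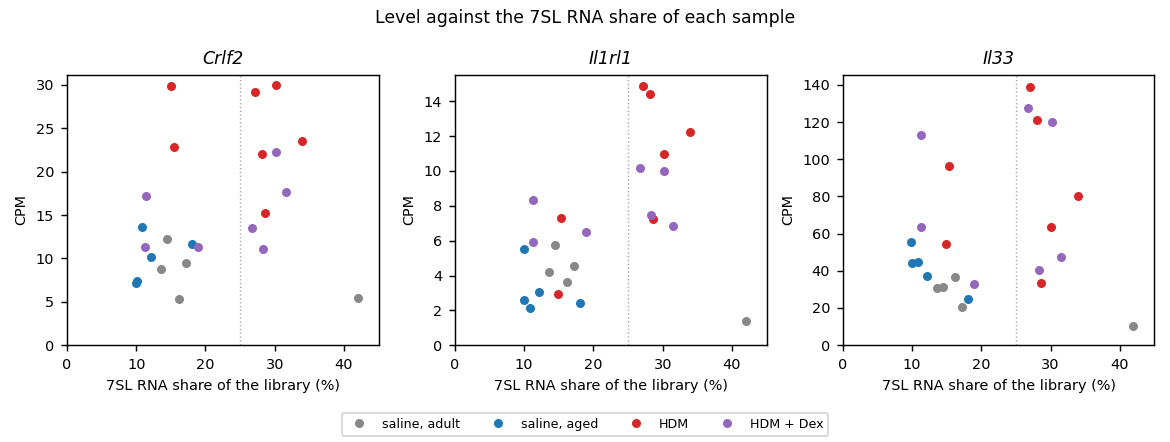
Level of Crlf2, Il1rl1 and Il33 in CPM (vertical axes) against the share of the library taken by 7SL RNA in percent (horizontal axis), 1 point per lung, coloured by group; the dotted line is at 25%. HDM lungs of Crlf2 lie above the aged saline lungs. All aged saline lungs are left of the line, so right of it there is none to compare with. Of the 2 HDM lungs of Il1rl1 left of the line, 1 lies at 2.93 CPM, among the saline lungs.

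Under HDM + Dex Il1rl1 remained above saline. The HDM + Dex lungs held 5.90 to 10.2 CPM with a median of 7.49 CPM, so that every one lay above the highest saline lung, at 5.51 CPM. Of all genes tested, 0.524% were higher without overlap in this comparison and 0.445% were called higher. The mean was 2.51-fold that of saline, with a log2 fold change of 1.13 ± 0.28 (adjusted p = 0.0402, limma; exact permutation p = 0.00126, the smallest possible). This adjusted p was near the threshold, ranging from 0.00897 to 0.363 over 7 alternatives, and rescaling gave 0.0534 with a larger log2 fold change of 1.30. It held in 11 of 19 fits that left out 1 sample and reached 0.106 without naïve aged replicate 5. Against HDM alone the log2 fold change was −0.20 ± 0.25 (adjusted p = 0.81, limma), and its sign differed between the 4 HDM + Dex females, which differed by 2.58 CPM from the 2 HDM females, and the 3 males, which differed by −3.76 CPM from the 5 HDM males (exact permutation p = 0.333 and 0.107). Whether the sexes differ was not tested.

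Il17rb (chr14:29996135-30008896, minus strand), the IL-25 receptor chain, differed little. It measured 3.35, 1.89, 2.37, 2.31 and 1.68 CPM in naïve aged lungs, 0.856 to 2.81 CPM after HDM with a median of 1.78 CPM, and 1.36 to 3.18 CPM under HDM + Dex with a median of 2.09 CPM. All 3 ranges overlap. Its log2 fold changes were −0.21 ± 0.20 for HDM vs. saline and 0.14 ± 0.18 for HDM + Dex vs. HDM (adjusted p = 0.448 and 0.81, limma). The gene Actr8 overlaps it on the other strand.

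The 2 called genes among 9 compare with 25.3% of all genes called in either direction between HDM and saline, 4.04% higher and 21.2% lower. After rescaling 3 were called, Crlf2, Il1rl1 and Il33, all higher, beside 10.9% of all genes called higher and 11.5% called lower. For HDM + Dex vs. HDM the count was 0 beside 0.964% of all genes, with 1 gene at an unadjusted p under 0.05 both by limma and by the exact test, Crlf2. After rescaling Crlf2 was called lower, beside 2.85% called in either direction and 0.862% called lower. For HDM + Dex vs. saline the count was 1, Il1rl1, beside 1.89%, and after rescaling 0 beside 0.941%, with 3 genes at an unadjusted limma p under 0.05 and 2 by the exact test on CPM as deposited. For the naïve aged vs. the naïve adult lung it was 0 beside 0.654%, with 2 genes at an unadjusted limma p under 0.05, Il1b and Il33, and 1 by the exact test, Il1b. For HDM vs. saline 5 of the 9 genes had an unadjusted limma p under 0.05, and 5 had one by the exact test. The percentages above are from adjusted p. Shares of all genes at an unadjusted p are not given here, so the unadjusted counts cannot be judged against them. The 3 comparisons among aged lungs share samples and are not independent of each other. In bulk lung, fewer cells of a type and less RNA per cell cannot be told apart.

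**Figure D3:**
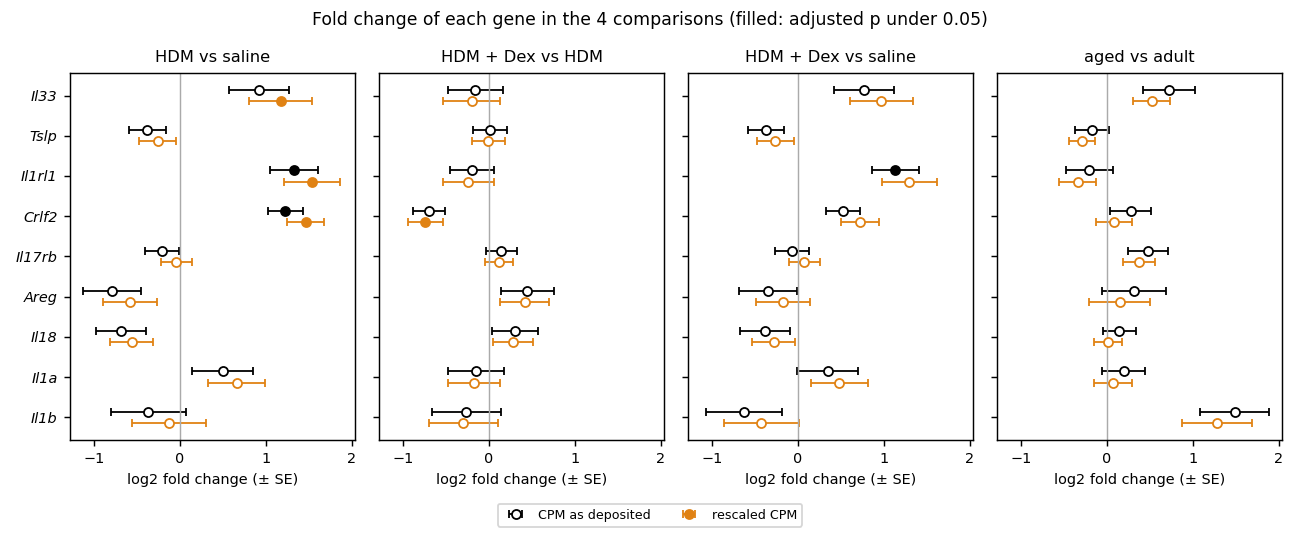
Log2 fold change ± SE (horizontal axes) of the 9 genes in the 4 comparisons, from CPM as deposited (black) and from rescaled CPM (orange); filled points have an adjusted p under 0.05. For HDM vs. saline Crlf2 and Il1rl1 are filled on both scales and Il33 on the rescaled one, and in the aged vs. adult panel the Il1b point is the farthest from 0, at 1.48, and is open.

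Areg, the amphiregulin gene, was lower in mean after HDM without passing the adjusted threshold. Naïve aged lungs held 7.63, 9.24, 4.93, 2.92 and 16.2 CPM, HDM lungs 1.63 to 6.42 CPM with a median of 4.94 CPM, and HDM + Dex lungs 3.01 to 12.4 CPM with a median of 4.67 CPM. The groups overlapped, saline replicate 5 standing highest and replicates 3 and 4 within the HDM range. The log2 fold change was −0.79 ± 0.34 (adjusted p = 0.085, limma; exact permutation p = 0.0404 on CPM and 0.0783 on log2 values). Without saline replicate 4 the adjusted p was 0.0283 and without saline replicate 5 it was 0.267.

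Il18 was likewise lower in mean. It was at 2.58, 1.82, 1.64, 2.31 and 1.43 CPM in naïve aged lungs and at 0.171 to 1.78 CPM after HDM with a median of 0.718 CPM. The 2 highest HDM values, 1.75 and 1.78 CPM, were those of replicates 6 and 7, the females with the low 7SL share, and the 5 others lay below every saline lung. The log2 fold change was −0.69 ± 0.29 (adjusted p = 0.0824, limma; exact permutation p = 0.0164). With the 7SL share as a covariate it was 0.15, and the range of the adjusted p over 7 alternatives was 0.0184 to 0.705. It passed without HDM replicate 6 (0.0469), HDM replicate 7 (0.0467) or HDM + Dex replicate 7 (0.0449). HDM + Dex lungs ranged from 0.232 to 4.00 CPM with a median of 0.928 CPM. Bco2 and Tex12 overlap Il18 on the other strand.

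Il1a and Il1b (chr2:129299610-129309972 and chr2:129364570-129371139, both on the minus strand and 54.6 kb apart) are both induced in myeloid cells, and HDM replicate 7 was the highest of the 24 lungs in each. Il1a measured 2.60, 1.78, 3.09, 3.12 and 1.01 CPM in naïve aged lungs and 1.32 to 14.9 CPM after HDM with a median of 3.26 CPM. Il1b measured 29.5, 16.9, 10.2, 43.7 and 35.4 CPM in naïve aged lungs and 5.48 to 69.3 CPM after HDM with a median of 18.4 CPM. Neither separated the groups: the log2 fold changes for HDM vs. saline were 0.49 ± 0.36 and −0.37 ± 0.44 (adjusted p = 0.313 and 0.553, limma). Under HDM + Dex Il1a ran from 1.39 to 5.42 CPM and Il1b from 6.56 to 39.4 CPM, and their log2 fold changes against HDM, −0.15 and −0.26, turned to 0.15 and 0.05 without HDM replicate 7. On the other strand, Gm14023 overlaps Il1a and Il1bos overlaps Il1b.

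Il1b had the largest difference in mean with age among the 9 genes by fold. The naïve adult lungs held 5.89, 13.1, 8.19, 16.4 and 2.74 CPM, and the naïve aged lungs were the higher in 23 of 25 pairs, with a ratio of means of 2.93. The log2 fold change was 1.48 ± 0.40 (adjusted p = 0.13, limma; exact permutation p = 0.0317, where 0.00794 is the smallest that 252 splits allow). It was not called in 7 alternatives, with adjusted p from 0.0711 to 0.423, and passed, at 0.0454, when naïve aged replicate 3 was left out. Neutrophil markers moved with it: 5 of 7 tested were called higher with age, beside 0.592% of all genes. The summed level of all 8 was 46.6 to 133 CPM in the adult and 136 to 372 CPM in the aged lungs, with Ly6g without a read in 13 of the 24 samples. The part of those cells in the Il1b values was not tested. All 5 adult mice were female and 3 of 5 aged mice were male, and with sex in the fit the log2 fold change had an adjusted p = 0.423.

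The other genes differed less with age. Il33 was at 10.2, 20.6, 31.5, 30.8 and 36.7 CPM in naïve adult lungs, 22 of 25 pairs being higher in the aged lung, with a log2 fold change of 0.72 ± 0.30 (adjusted p = 0.372, limma; exact permutation p = 0.0556). Adult replicate 1, the lowest, had the 7SL share of 41.98%. Without it the log2 fold change of Il33 was 0.43, and with the 7SL share as a covariate it was 0.22. Crlf2 was at 8.26 ± 2.90 CPM in adult and 10.02 ± 2.78 CPM in aged lungs, and Il1rl1 at 3.89 ± 1.61 and 3.15 ± 1.36 CPM, log2 fold changes of 0.27 ± 0.24 and −0.21 ± 0.27 (adjusted p = 0.635 and 0.736, limma). The remaining 5 genes had log2 fold changes from −0.18 (Tslp) to 0.48 (Il17rb), beside a median of 0.19 over all genes.

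Of the other 58 genes listed for the pathway, 52 had a row and 48 were tested. After HDM 9 were higher and 6 lower, beside 4.04% and 21.2% of all genes, and after rescaling 14 were higher and 3 lower, beside 10.9% and 11.5%. Both counts of higher genes include Ccl24, which passed the filter only through the HDM groups. In the other comparisons 1 was lower under HDM + Dex than under HDM (0.214% of all genes), and 2 were higher with age (0.592% of all genes). With sex as a covariate 0 were higher with age. Among the shared receptor chains Il18r1, a chain of the IL-18 receptor, fell by −0.51 on the log2 scale after HDM (adjusted p = 0.0362, limma), a call that rescaling removed and that held in 13 of 19 fits without 1 sample. Il7r, the partner of Crlf2, went from 23.1 ± 8.59 to 35.6 ± 13.3 CPM, with a log2 fold change of 0.60 ± 0.24 (adjusted p = 0.0636; 0.0132 after rescaling, within 0.0132 to 0.0822 over 7 alternatives). Under HDM + Dex Il7r was at 21.5 ± 4.79 CPM, −0.66 ± 0.21 against HDM (adjusted p = 0.142, limma). Il1rap, the partner of ST2, had a log2 fold change of −0.38 ± 0.15 (adjusted p = 0.076), and Il1r1, Il17ra and Il18rap had 0.34, 0.22 and −0.18, none of them called.

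Il1rl1 lies in a cluster of 6 receptor genes that spans 478 kb on chromosome 1, in the order Il1r2, Il1r1, Il1rl2, Il1rl1, Il18r1 and Il18rap, all on the plus strand. Il18r1 starts 136 bases beyond the end of Il1rl1. After HDM the 6 neighbours did not move as a block: their log2 fold changes in that order were −0.77, 0.34, 0.17, 1.33, −0.51 and −0.18, and of these only Il1rl1 and Il18r1 were called.

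The inhibitors of the IL-1 family held the 1 pathway gene called between HDM + Dex and HDM, Il1rn. This gene, which encodes the IL-1 receptor antagonist, was at 5.30, 4.13, 9.19, 8.09 and 8.76 CPM in naïve aged lungs. HDM lungs ran from 7.30 to 64.2 CPM with a median of 32.01 CPM, and HDM + Dex lungs from 5.17 to 21.5 CPM. Apart from HDM replicate 2, at 7.30 CPM, every HDM lung was above every saline and every HDM + Dex lung. The log2 fold change was 1.94 ± 0.37 for HDM vs. saline (adjusted p = 0.00121, limma), called in 7 of 7 alternatives, and −1.60 ± 0.34 for HDM + Dex vs. HDM (adjusted p = 0.0292), called in 5 of 7 alternatives, with p from 0.0136 to 0.0838, and in 11 of 19 fits without 1 sample, with p up to 0.0792 without HDM replicate 4. HDM + Dex lungs were at 9.87 ± 5.65 CPM against 7.09 ± 2.25 CPM in saline (adjusted p = 0.586).

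Il1r2, the decoy receptor of IL-1, was the gene of this group that rose with age, from 1.04 ± 0.665 to 6.26 ± 4.50 CPM, a log2 fold change of 1.69 ± 0.35 (adjusted p = 0.0311, limma). That call held in 4 of 7 alternatives, with adjusted p from 0.00425 to 0.141, and in 3 of 10 fits without 1 sample, with p up to 0.0907 without naïve adult replicate 2. The 5 aged lungs were at 2.18 to 13.4 CPM and the adult lungs at 0.162 to 2.001 CPM. The share of all genes whose ranges do not overlap in this comparison is not given here, so these ranges are a description only. Il1f9, the gene of IL-36γ, rose by 1.34 ± 0.28 on the log2 scale (adjusted p = 0.0326), called in 2 of 7 alternatives, with adjusted p from 0.0341 to 0.376, and lost after rescaling. Sex was not balanced between the adult and the aged naïve mice. With sex as a covariate both Il1r2 and Il1f9 lost the call. Between the adult and the aged naïve lungs the neutrophil markers given above moved with both, and their part was not tested. Calls of those markers with sex as a covariate are not given here. The other inhibitors tested, Il18bp, Sigirr, Tnfaip3 and Irak3, stood at 0.06, 0.35, 0.24 and −0.12 (log2 fold change, HDM vs. saline), none of them called, and Sigirr passed after rescaling.

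**Figure D4:**
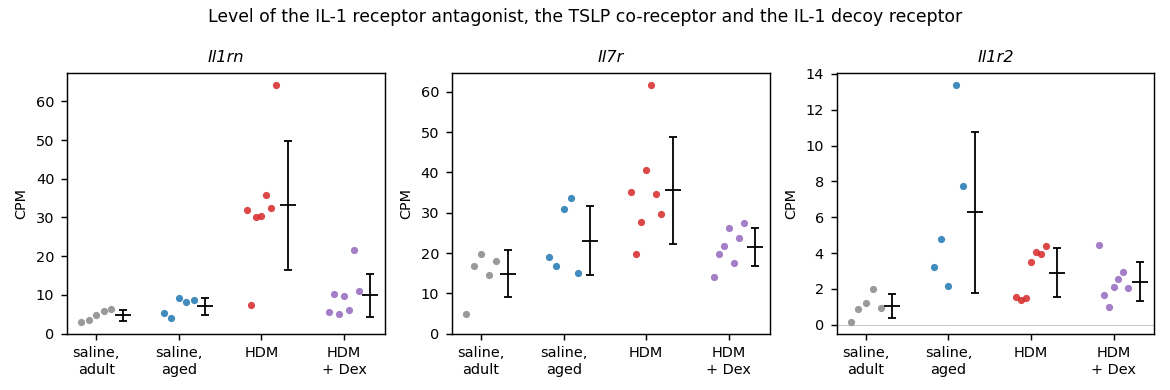
Level of Il1rn, Il7r and Il1r2 in CPM (vertical axes, linear) in each lung by group; points are mice and the black mark is the mean ± SD. Of the Il1rn values after HDM, 6 lie between 30.2 and 64.2 CPM and 1 at 7.30 CPM, and the highest Il1r2 value, 13.4 CPM, is a naïve aged lung.

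Downstream of the receptors, 1 of 12 genes of MyD88 signalling was higher after HDM and 2 were lower, beside 4.04% and 21.2% of all genes. After rescaling 2 were higher and 0 lower, beside 10.9% and 11.5%. Nfkb2, an NF-κB subunit, rose by 0.57 ± 0.18 on the log2 scale (adjusted p = 0.0269, limma), while Nfkbia, the NF-κB inhibitor, fell by −0.57 and the ligase gene Traf6 fell by −0.46 (adjusted p = 0.0246 and 0.0494). Rescaling removed the calls of Nfkbia and Traf6 and added Nfkb1, the gene of another NF-κB subunit, at 0.27 as deposited and 0.52 rescaled. Nfkbia was also lower under HDM + Dex than in saline, by −0.78 ± 0.18 (adjusted p = 0.0316), with p from 0.0045 to 0.292 over 7 alternatives and the call lost after rescaling. Of 9 genes of the inflammasome, which activates caspase-1, Nlrp1b rose by 0.94 ± 0.19 (adjusted p = 0.00198), and the other 8 were not called. After rescaling 3 of the 9 were higher, beside 10.9% of all genes, with Casp8 (0.25 as deposited, 0.50 rescaled) and Aim2 (0.47 and 0.69) added. The EGF receptor gene Egfr fell by −0.87, and its ligands Btc and Tgfa fell by −1.21 and −0.75 (adjusted p = 0.00478, 0.0105 and 0.0238, limma). These were 3 of 7 genes tested, on both scales, beside 21.2% of all genes called lower and 11.5% after rescaling. With the 7SL share as a covariate none of the 48 genes was called lower after HDM and 13 were called higher. Of the 17744 genes 399 were then called lower and 1172 higher.

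Genes of the type 2 answer showed the largest folds. All 6 tested were higher after HDM, beside 4.04% of all genes. Of these, Ccl24 reached the filter only through the HDM groups, with means of 0.224 CPM in aged saline and 35.1 CPM after HDM. Its direction was thereby fixed in advance, and its call adds nothing to that count. They were the macrophage genes Retnla (log2 fold change 5.73 ± 0.65, adjusted p = 3.76e-05, limma) and Arg1 (5.31), and the chemokines Ccl24 (3.52), Ccl11 (3.00), Ccl17 (1.46) and Ccl22 (1.37). With the 7SL share as a covariate Arg1, Ccl24, Ccl11 and Ccl17 lost the call. Retnla, at 6.07 ± 2.75 CPM in saline, was at 490 ± 302 CPM after HDM and 564 ± 432 CPM under HDM + Dex, where it was again called higher than in saline (5.91 ± 0.65, adjusted p = 2.18e-05). Arg1 was at 204 ± 205 CPM after HDM and 49.9 ± 54.1 CPM under HDM + Dex, a log2 fold change of −1.73 ± 0.88 (adjusted p = 0.406). Il5 and Il13 were under the filter and were not tested by limma. The mean of Il5 was lower after HDM, at 0.534 CPM, than in aged saline, at 0.768 CPM, and was 0.839 CPM under HDM + Dex. The mean of Il13 was 0.0239 CPM in aged saline, 0.192 CPM after HDM and 0.354 CPM under HDM + Dex. Il13 had no read in 3 aged saline and 2 HDM + Dex lungs.

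**Figure D5:**
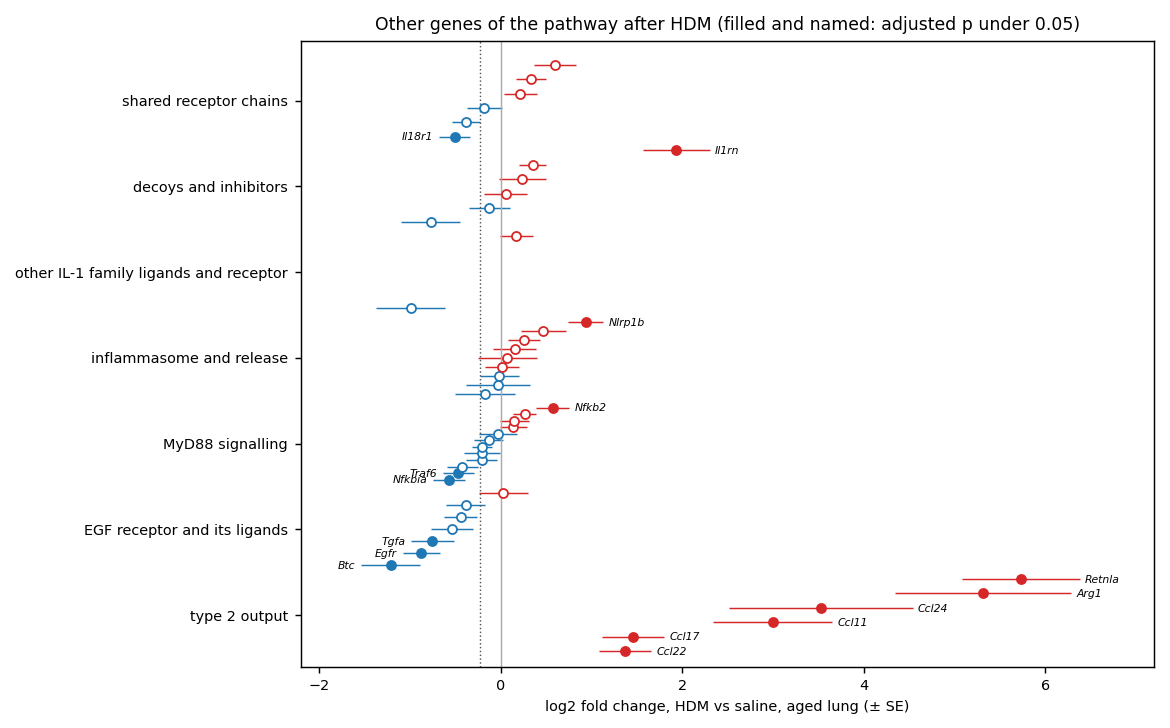
Log2 fold change ± SE after HDM in the aged lung (horizontal axis) of the 48 tested pathway genes beside the 9, by list; filled and named points have an adjusted p under 0.05, red is higher and blue is lower, and the dotted line is the median of all genes, −0.23. The named points run from −1.21 for Btc to 5.73 for Retnla. All 6 tested genes of type 2 output are filled, among them Ccl24, which passed the filter only through the HDM groups.

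Cells that carry the alarmin receptors were looked for by their markers. The counts after HDM stand beside 4.04% of all genes called higher and 21.2% called lower (10.9% and 11.5% after rescaling). Mast cell and basophil genes (7 of 9 listed had a row) summed to 97.6 to 124 CPM in aged saline and 83.0 to 144 CPM in HDM lungs, with Mcpt8, Fcer1a and Tpsb2 without a read in 13, 8 and 8 of the 24 samples. The list of group 2 innate lymphoid and Th2 cells (8 of 9) summed to 83.1 to 113 CPM in saline and 83.8 to 630 CPM after HDM, and it holds Arg1, which alone rose to a mean of 204 CPM. Dendritic cell genes summed to 104 to 156 CPM and 82.7 to 142 CPM, with 0 of 6 called. Alveolar macrophage genes summed to 259 to 371 CPM and 441 to 3091 CPM, with 1 of 7 called higher and 1 lower. Their median log2 fold change was −0.43, so the sum does not stand for the list as a whole. Neutrophil genes summed to 136 to 372 CPM and 220 to 969 CPM, with 1 of 7 called higher and 2 lower. Here too the sum does not stand for the list, whose median log2 fold change was −0.87. Monocyte and interstitial macrophage genes summed to 142 to 196 CPM and 161 to 555 CPM, with 4 of 7 called higher. Club cell genes summed to 4666 to 6672 CPM and 280 to 2754 CPM and ciliated cell genes to 224 to 333 CPM and 44.8 to 199 CPM, with 3 of 4 and 6 of 6 called lower. Fibroblast genes summed to 729 to 940 CPM and 963 to 1753 CPM, with 3 of 6 called higher and 2 lower, and endothelial genes to 1865 to 2290 CPM and 1344 to 2202 CPM, with 4 of 6 called lower (1 higher and 2 lower after rescaling). Under HDM + Dex monocyte and interstitial macrophage genes summed to 112 to 320 CPM, with a median log2 fold change of −0.69 against HDM, and no single one of them passed the adjusted limma threshold. In that comparison 3 of 6 fibroblast genes were called lower, with sums of 777 to 1262 CPM under HDM + Dex, and 4 of 6 ciliated cell genes were called higher, with sums of 127 to 316 CPM. Of all genes 0.964% were called there in either direction and 0.214% lower. The part of these cells in the values of Crlf2, Il1rl1, Il33, Areg and Il18 was not tested.

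Across the 24 lungs the 3 genes whose rescaled log2 levels ran most alike Crlf2 were Esyt1, Mapkapk3 and Igsf8 (Pearson r = 0.947, 0.942 and 0.941). For Il1rl1 they were Mgl2, Col6a5 and Tmem26 (0.922, 0.910 and 0.902), and for Il33 Mrc1, Bcap29 and Acsl4 (0.923, 0.916 and 0.912). Mrc1, the macrophage mannose receptor, is on the alveolar macrophage list. The median log2 fold change of that list after HDM was −0.43, so Mrc1 does not stand for the list. Il1b ran with Csf3r, Clec4d and Mxd1 (0.901, 0.899 and 0.857), of which Csf3r is on the neutrophil list, and Il1a with Cxcl3, Rab32 and Mthfsl (0.859, 0.845 and 0.821). Il17rb was most alike Nudcd1, Xpo1 and Gm45137 (0.860, 0.808 and 0.781). Tslp was nearest to Podxl2, Mtmr10 and Syde2 (0.833, 0.815 and 0.797) and Areg to Ptprn, Gm28872 and Dhx32 (0.715, 0.714 and 0.711). Among the 9 genes themselves, Il33 and Il1rl1 had the highest r, 0.796, followed by Il1rl1 and Crlf2 at 0.695 and Il33 and Crlf2 at 0.667, and the lowest was Il1rl1 with Il18 at −0.72. These values describe the 24 lungs, whose points share 4 groups and their libraries.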

How the data were processed

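RNA of the left lung lobe of 24 mice was analysed. The methods of the paper describe libraries of stranded mRNA, paired-end reads and a pipeline of Picard, STAR and limma run by the authors; the submitters' processing notes name FastQC, STAR, DESeq2 and the build mm9. They deposited CPM per gene and sample, with 0.0001 added to every value. Of the table's symbols, 23276 were in GENCODE vM21 (GRCm38), 23142 of them with the same start, so GRCm38 coordinates are given. Depth was estimated from the spacing of low CPM values, of which 80.3% to 84.9% were within 0.05 of whole multiples, so counts were not recovered and count tests were not run. Depth covers counting error only.

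Groups followed the labels. limma 3.58.1 (R 4.3.3) was run on log2(CPM + 1), with 17744 genes whose mean reached 1 CPM, eBayes and a mean-variance trend, Benjamini-Hochberg adjustment over all genes and a threshold of 0.05, in 1 fit of the 19 aged and 1 of the 10 saline samples. Fold changes are on that scale and understate those of low genes. For mean CPM an exact permutation test, two-sided, was used (scipy 1.17.1). P-values measure the spread between these samples. The fit was also run on simulated data, whose outcome is not given here. Alternatives were a pseudocount of 0.1, no filter, median-of-ratios rescaling, other groups in the fit, a replicate block, sex or 7SL share as a covariate, and leaving out each sample. Values within sexes and 7SL classes were chosen after seeing the data. Replicate numbers did not pair the samples.

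Named were all members, the tested shared chains and inhibitors, up to 3 called genes of largest fold per other list (further ones after their values were seen), and the 3 genes most alike each member, which for Il18 are not reported here. The members and lists were chosen with earlier results of these data known. A download note among the series' files was not used.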

Additional observations from a re-analysis of the deposited data

Results flagged for a closer look

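Tslp under HDM + Dex stood out in 1 sample. Replicate 5 measured 2.03 CPM, whereas the other 6 HDM + Dex lungs lay between 0.309 and 0.835 CPM. On the scale of log2(CPM + 1), the gap of replicate 5 to the nearest was 0.598 of the range of the group. Dixon's critical value is 0.568. Among 36 groups examined (9 genes in 4 groups), 1 was marked in this way and chance would mark about 1.8 (1 in 20). Without that sample the log2 fold change of Tslp for HDM + Dex vs. HDM was −0.12 in place of 0.01.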

How the results depend on the processing

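The number of the 9 genes called for HDM vs. saline was 2, and it was 4 with only the 2 groups compared in the fit (Il18 and Il33 added), 1 with the 7SL share as a covariate (Crlf2), and 2 to 4 when each sample was left out, 4 without HDM replicate 7. For HDM + Dex vs. HDM it was 0, and 1 (Crlf2) after rescaling and with the 7SL covariate, and 0 to 1 without 1 sample (1 without HDM replicate 2 or HDM + Dex replicate 6). For HDM + Dex vs. saline it was 1 (Il1rl1), 0 without the filter, after rescaling and with the 7SL covariate, and 0 to 1 without 1 sample; the call was lost without naïve aged replicate 1, 2, 4 or 5 or HDM + Dex replicate 1, 2, 3 or 6. For aged vs. adult it was 0, and 0 to 1 without 1 sample (Il1b without naïve aged replicate 3). The cause of these changes was not tested.

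Directions turned for the following genes and comparisons, none of which had passed the adjusted threshold. With the 7SL covariate, log2 fold changes were 0.0838 (Il17rb), 0.15 (Il18) and 0.0105 (Il1b) for HDM vs. saline, −0.0372 (Tslp) for HDM + Dex vs. HDM, 0.16 (Il17rb), 0.0452 (Areg) and 0.27 (Il18) for HDM + Dex vs. saline, and −0.0163 (Areg) and −0.0504 (Il1a) for aged vs. adult. With sex in the fit they were −0.0380 (Tslp, HDM + Dex vs. HDM), 0.15 (Il1rl1) and −0.44 (Areg; both aged vs. adult). After rescaling they were −0.0077 (Tslp, HDM + Dex vs. HDM; −0.0253 CPM) and 0.0736 (Il17rb, HDM + Dex vs. saline; 0.184 CPM). Leaving out 1 sample gave −0.13 to 0.10 (Tslp), −0.35 to 0.0137 (Il33), −0.31 to 0.15 (Il1a) and −0.53 to 0.0464 (Il1b) for HDM + Dex vs. HDM, and −0.14 to 0.0365 (Il17rb) for HDM + Dex vs. saline. Within samples with a 7SL share below 25% Il1rl1 was 1.82 CPM higher, and within females Il1rl1 was 2.58 CPM and Il33 6.86 CPM higher, under HDM + Dex than under HDM. Of 252 results of single genes under the fit alternatives, 228 kept direction and side of the threshold.

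Same-numbered samples did not deviate together (22 pairs, r from −0.238 to 0.407, 3 over 0.1), so the numbers do not pair them. With the replicate number as a block, 3 of the 9 genes were called for HDM vs. saline, Il18 being added, and 0, 1 and 0 in the other 3 comparisons; over all genes the counts were 5644, 8, 898 and 168 in place of 4482, 171, 335 and 116. Other counts over all genes that moved by over 1.5 times were, for HDM + Dex vs. HDM, 83 without the filter, 506 after rescaling, 1 with only the 2 groups, 293 with sex and 563 with the 7SL share, for HDM vs. saline 1571 with the 7SL share, for HDM + Dex vs. saline 213, 167, 519, 1929 and 34 in the same order of settings, and for aged vs. adult 183 after rescaling and 65 with all 24 samples in the fit. Of the other pathway genes, 9 higher and 6 lower after HDM became 9 and 10 with the replicate block, 12 and 7 with sex, and 13 and 0 with the 7SL share. Genes under about 2 CPM, Tslp, Il17rb and Il18, rest on few reads, and small differences in them were not detectable at this depth.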
